A study of Mus musculus with 4 samples.

Results

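The endothelial cell genes were a list of 34 genes whose products mark or serve the cells that line blood and lymph vessels, chosen by name and not by their values in these samples. On the Affymetrix 430A array 32 of the 34 had a probe set annotated to that gene alone, out of 12393 genes in all; Mmrn2 and Ecscr had none and were not analysed here. Where a gene had several such probe sets, the brightest by mean log2 signal stood for it, which was the case for 9 genes. Of the 32, 9 had a mean signal at or above the median of all genes (Eng, Esam, Cd34, Egfl7, Ramp2, Robo4, Klf2, Edn1 and Thbd), so most of the list was measured among the dimmer genes.

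The arrays held RNA from adult male mice of 2 kinds. W/Wv males carry 2 mutant alleles of Kit, the receptor tyrosine kinase that germ cells need, and were bought as a WB by B6 cross. XX/Sry males have 2 X chromosomes and an Sry transgene that turns the XX gonad into a testis. Both kinds of testis lack most germ cells, and the study asked how well each somatic environment supports spermatogenesis. Each kind gave 2 preparations, the whole testis and seminiferous tubules freed with collagenase and washed over a strainer, with 1 array in each of the 4 groups. The labels name no strain for the XX/Sry males, so genotype and strain cannot be told apart, and they do not say how many animals gave each RNA.

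Blood vessels of the testis run in the interstitium between the tubules, beside Leydig cells and macrophages, and capillaries lie close against the tubule wall. Endothelial cells hold to each other with junction proteins such as Pecam1 and Esam, read flow and growth signals through receptors such as Tie1, Eng and S1pr1, and are specified by transcription factors of the ETS and SoxF families. They also set vessel tone, with nitric oxide from Nos3 acting against the constrictor peptide endothelin-1 from Edn1, and keep clotting in check through thrombomodulin and the protein C receptor.

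The arrays were comparable in overall level, with median signals of 157 to 183. The Y chromosome gene Eif2s3y had W/Wv signals of 795 (whole testis) and 580.3 (tubules) and XX/Sry signals of 9.5 and 28.2, as the labelled genotypes require. Of 10 Sertoli cell markers, 9 or 10 lay above background on each array. The hybridisation spike controls stood apart on the W/Wv tubules array, where their median lay 0.46 above the average array on the log2 scale, against -0.18 to -0.09 on the others. Results without that array are therefore the whole testis pair for genotype and the XX/Sry pair for preparation, and both are given throughout. Background was bounded on each array by the highest of 27 bacterial control probe sets, at signals of 76.3 (W/Wv) and 63.9 (XX/Sry) for whole testis and 46.1 (W/Wv) and 61.0 (XX/Sry) for tubules. A fold against a signal below that bound is given as "at least", with the higher bound of the pair in its place, and refers to the probe set that stood for the gene.

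Of the 32 endothelial genes, 20 (W/Wv) and 25 (XX/Sry) lay above the bound in whole testis, and 25 and 27 in tubules. On all 4 arrays 15 genes did so, on 3 arrays 9, on 2 arrays 4, on 1 array Tal1 and Sele, and on none Tie1 and Erg. Their signals summed to 4808 (W/Wv) and 5885 (XX/Sry) in whole testis, and to 5689 and 6068 in tubules. In such tissue RNA, fewer endothelial cells and less RNA per cell cannot be told apart. By the probe set that stood for each gene, the lowest signal was on the W/Wv whole testis array for 12 of the 32. It was on the W/Wv tubules array for 11, on the XX/Sry whole testis array for 8 and on the XX/Sry tubules array for 1. Over all genes the shares were 19.5%, 28.0%, 25.9% and 26.6%, against 37.5%, 34.4%, 25% and 3.12% for the list.

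**Figure D1:**
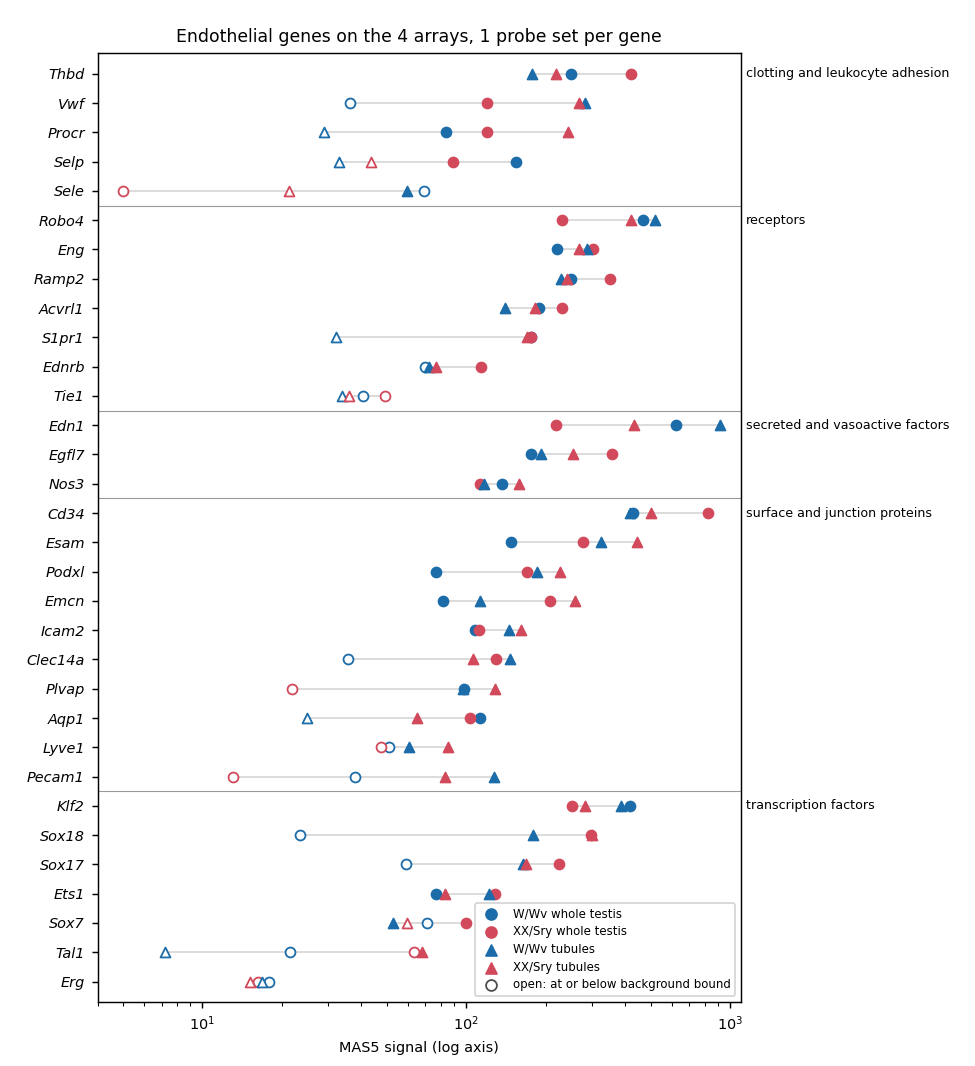
MAS5 signal (log axis) of the 32 endothelial genes on the 4 arrays, 1 probe set per gene, grouped by role; blue is W/Wv, red XX/Sry, circles whole testis and triangles tubules, and open symbols lie at or below the background bound of their array. Red symbols lie to the right for Emcn and to the left for Edn1, and the single low blue circle of Sox18 (23.5) and low blue triangle of S1pr1 (32.1) are open.

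The question of the main comparison was how the 2 recipient testes differ, here in their vessel genes. The median log2 ratio of XX/Sry to W/Wv over the list was 0.47 in whole testis and 0.22 in tubules, against -0.10 and -0.00 over all genes, with 12 and 10 of the 32 below 0. The median of 55 other vascular genes was 0.06 and 0.00. Emcn was more than 2-fold brighter in XX/Sry in both preparations and Edn1 more than 2-fold dimmer. Between them, 16 of the 32 had a ratio above 0 in both preparations and 6 a ratio below 0 in both, where 23.8% and 30.4% of all genes did. Over the 9 brighter members the medians were 0.49 and 0.07, against -0.03 and -0.01 over all genes of that brightness. With 1 array per group these ratios have no replicate error. Other lists lay higher in XX/Sry whole testis too, with medians of 0.58 for 6 Leydig cell genes, 0.44 for 10 mural and peritubular genes, 0.69 for 7 fibroblast and tunica genes and 0.20 for 12 macrophage genes, and of 1.13, 0.04, -1.12 and -0.44 in tubules; their part in the endothelial ratios was not tested. The 8 germ cell genes went the other way in whole testis, with a median of -3.30, 0 of 8 above 0 and summed signals of 5014 (W/Wv) and 921 (XX/Sry), and had a median of 0.05 in tubules; the part of germ cell RNA on the W/Wv whole testis array was not tested either.

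The study called a gene different where it was at least 2-fold apart, the same way, in both preparations. By that rule 2 of the 32 were higher in XX/Sry (Emcn and Tal1), where 1.98% of all genes were, and 2 were lower (Edn1 and Sele), where 3.22% were. Against the background bound, Emcn alone was higher and Edn1 alone lower, beside 0.734% and 0.436% of all genes. Of the 9 brighter members 0 were higher and 1 lower, beside 0.984% and 0.468% of genes of that brightness. The remaining 28 genes met the rule in neither direction.

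An additive limma model with terms for genotype and preparation, fitted to log2 signals of all 22626 probe sets, is the only source of an error here, with 1 residual degree of freedom and any interaction counted as error. In it 0 of the 32 members passed an adjusted p of 0.05 for genotype, and 0.15% of all probe sets did. At an unadjusted p under 0.05 there were 6 members (Emcn, Sox18, Tal1 and Procr higher, Edn1 and Sele lower), or 18.8%, against 8.74% of all probe sets. The lowest adjusted p was that of Edn1, at 0.161. Fitted among brighter probe sets alone, Edn1 had an adjusted p of 0.0376, and it ranged up to 0.726 over the other settings tried.

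**Figure D2:**
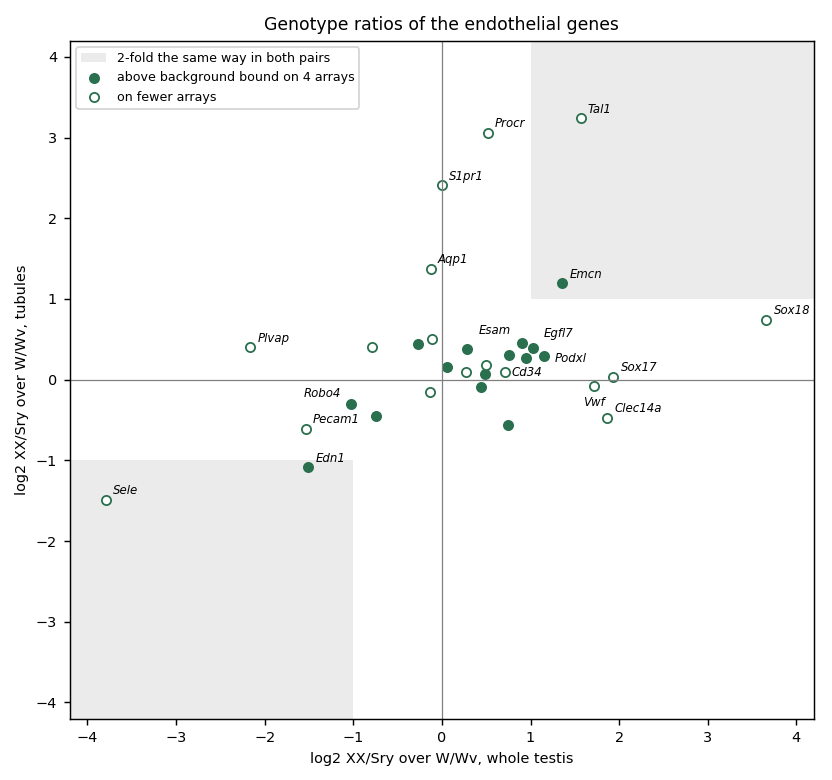
Log2 ratio of XX/Sry over W/Wv in whole testis (horizontal) and in tubules (vertical) for the 32 endothelial genes; filled points were above the background bound on all 4 arrays, and shaded corners mark 2-fold the same way in both. Emcn and Tal1 lie in the upper right corner, Edn1 and Sele in the lower left, and most points lie within 2-fold on at least 1 axis.

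Emcn encodes endomucin, a sialomucin on the surface of capillaries and veins. In whole testis its signal was 81.3 (W/Wv) and 208 (XX/Sry), and in tubules 113 (W/Wv) and 259 (XX/Sry), all above the bound. Both XX/Sry arrays lay above both W/Wv arrays, 2.56-fold in whole testis and 2.29-fold in tubules. The fitted log2 difference was 1.28 ± 0.47 (SE, 95% interval 0.24 to 2.31), with a limma adjusted p of 0.456, and 0.355 to 0.718 over the other settings. With a constant of 50 added to every signal the log2 ratios were 0.98 and 0.92, just short of 2-fold.

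Edn1 encodes the precursor of endothelin-1, the vasoconstrictor peptide. In whole testis its signal was 622 (W/Wv) and 219 (XX/Sry), and in tubules 918 (W/Wv) and 432 (XX/Sry). Both XX/Sry arrays lay below both W/Wv arrays, 2.84-fold in whole testis and 2.13-fold in tubules. The fitted log2 difference was -1.30 ± 0.30 (SE, 95% interval -1.95 to -0.65). With the spike controls made equal on the arrays, a setting chosen after seeing the data, the tubule ratio was -0.46 and the rule was no longer met.

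The promoters of these 2 genes are shown because they alone met the study's rule against the background bound, and in opposite directions. They are the 250 bases before the RefSeq start (GRCm38.p6), on the plus strand, at chr3:137340828-137341077 for Emcn and chr13:42301226-42301475 for Edn1. Capitals mark matches, on either strand, to the motifs AGGAAG and CCGGAA (ETS family), ACAAT (SOX family) and CACCC (KLF family).
Emcn: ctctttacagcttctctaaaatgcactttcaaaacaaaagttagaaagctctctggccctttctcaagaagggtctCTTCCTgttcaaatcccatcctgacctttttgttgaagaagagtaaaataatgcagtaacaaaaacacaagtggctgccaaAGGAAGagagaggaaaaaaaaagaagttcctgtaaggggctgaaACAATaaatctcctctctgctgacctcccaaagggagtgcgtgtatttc
Edn1: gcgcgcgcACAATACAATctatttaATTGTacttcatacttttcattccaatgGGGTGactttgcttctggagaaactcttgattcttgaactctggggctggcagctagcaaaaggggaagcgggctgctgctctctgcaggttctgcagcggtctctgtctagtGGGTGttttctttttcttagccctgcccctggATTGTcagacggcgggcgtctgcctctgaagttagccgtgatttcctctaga
The Emcn window held AGGAAG on each strand and ACAAT once, and no CACCC. The Edn1 window held ACAAT 4 times, with 2 matches that run on into each other, and CACCC 2 times on the opposite strand, and no AGGAAG. The table held 21 promoters for 16 of the 32 genes. AGGAAG was in 11 of the 21 (52.4%) and in 29.5% of all 32851 promoters of that length, CACCC in 13 (61.9%) and 52.0%, ACAAT in 6 (28.6%) and 27.7%, and CCGGAA in 0 and 12.0%. A match describes letters and is no evidence of binding.

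Among the surface and junction proteins, 10 of which were measured, medians were 0.48 in whole testis and 0.34 in tubules. Esam, an adhesion molecule of endothelial tight junctions and platelets, had whole testis signals of 148 (W/Wv) and 276 (XX/Sry) and tubule signals of 324 and 445, which made it 1.87-fold and 1.37-fold higher in XX/Sry. Cd34, a sialomucin of small vessels that also marks blood stem cells and some stromal cells, had 428 and 824 in whole testis and 418 and 503 in tubules, 1.93-fold and 1.20-fold higher. Podxl, a relative of Cd34, had 76.7 and 170.5 in whole testis and 185 and 226 in tubules, 2.22-fold and 1.22-fold higher. These genes were thus higher in XX/Sry in both preparations, and by more in whole testis, without reaching 2-fold in tubules. A second Podxl probe set ran the opposite way, from 109 to 14.8 in whole testis and from 108 to 56.9 in tubules, so the direction for Podxl depends on the probe set.

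Icam2, a ligand of leukocyte integrins, differed by 1.04-fold and 1.11-fold, with signals of 108 and 112 in whole testis and 145 and 161 in tubules. Pecam1, the junction protein CD31, was below the bound in whole testis (W/Wv 37.7, XX/Sry 13.0) and had 127 and 83.3 in tubules, 1.53-fold lower in XX/Sry. Clec14a, a lectin-like receptor, had 35.7 and 129.8 in whole testis, at least 1.70-fold higher in XX/Sry, and 147 and 106 in tubules, 1.39-fold lower. Plvap, which forms the diaphragms of fenestrated capillaries, had 98.0 and 21.9 in whole testis, at least 1.28-fold lower in XX/Sry, and 97.5 and 128.5 in tubules, 1.32-fold higher. For Clec14a and Plvap the preparations therefore disagreed in direction, and in each case 1 array, below the bound, made the large ratio. A second Clec14a probe set showed no such disagreement. It had 12.6 on both whole testis arrays, below the bound, and 52.5 and 51.2 in tubules, with log2 ratios of 0 and -0.04. Aqp1, a water channel of capillaries that red cells share, had 113 and 103 in whole testis and 25 and 64.8 in tubules, where it was at least 1.06-fold higher in XX/Sry. Lyve1, a hyaluronan receptor of lymphatic vessels and some macrophages, had 51.0 and 47.3 in whole testis, both below the bound, and 60.5 and 85.6 in tubules. Its second probe set disagreed, with 82.7 (above the bound) and 27.1 in whole testis and 3.2 and 78.0 in tubules, so Lyve1 has no settled direction.

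Of the 7 receptors, 6 were within 2-fold in whole testis and 6 in tubules. Robo4, a guidance receptor largely of endothelium, had whole testis signals of 468 (W/Wv) and 229.9 (XX/Sry) and 518 and 420.4 in tubules, 2.04-fold and 1.23-fold lower in XX/Sry. Eng, the TGF-beta co-receptor endoglin, had 222 and 301 in whole testis and 286 and 268 in tubules, with log2 ratios of 0.44 and -0.10. A second Eng probe set had log2 ratios of 0.25 and 0.48, so the tubule direction of Eng depends on the probe set. Acvrl1, the type I receptor that works with endoglin, had 189 and 230.5 in whole testis and 140.2 and 182 in tubules, 1.22-fold and 1.30-fold higher. Ramp2, which lets the calcitonin-like receptor bind adrenomedullin, had 250.3 and 352 in whole testis and 228.5 and 241 in tubules, 1.41-fold and 1.05-fold higher. Robo4 was thus the sole receptor lower in XX/Sry in both preparations, and Acvrl1, Ramp2 and Ednrb were higher in both.

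S1pr1, the receptor for sphingosine-1-phosphate that stabilises junctions, had 177 in both whole testis arrays. In tubules it had 32.1 in W/Wv, below the bound, and 170.4 in XX/Sry, at least 2.79-fold higher. For S1pr1 the W/Wv tubules array alone was thus low. Ednrb, a receptor for endothelin peptides, had 69.5 and 113.5 in whole testis, at least 1.49-fold higher in XX/Sry, and 72.1 and 76.9 in tubules. Edn1 and its receptor Ednrb therefore ran in opposite directions in whole testis. Tie1, a receptor tyrosine kinase of endothelium, lay at 33.8 to 49.2, below the bound on all arrays, and no fold is given.

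Over the 7 transcription factors the whole testis median was 0.74 and the tubule median 0.04, and Sox18, a SoxF factor, had the largest whole testis ratio of these 7. Sox18 had whole testis signals of 23.5 (W/Wv) and 297 (XX/Sry) and tubule signals of 179 and 299, at least 3.89-fold higher in XX/Sry in whole testis and 1.68-fold in tubules. The W/Wv whole testis array alone lay below the bound. Sox17 showed a like pattern with 59.0, 225.5, 164 and 168, at least 2.96-fold higher in XX/Sry whole testis and 1.03-fold in tubules, but a second Sox17 probe set had 115 and 88.9 in whole testis, both above the bound and the other way. Sox7, the third SoxF gene, had 70.7 and 99.7 in whole testis, at least 1.31-fold higher, and 52.6 and 59.7 in tubules. The fitted log2 difference of Sox18 was 2.20 ± 0.66 (SE) with a limma adjusted p of 0.317; it was 0.0166 with the spike controls made equal on the arrays and lay above 0.05 in the other settings tried.

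Klf2, which endothelium switches on under steady flow, ran against the list, with 419 and 251 in whole testis and 386 and 282 in tubules, 1.67-fold and 1.37-fold lower in XX/Sry. Ets1, an ETS factor of endothelium and lymphocytes, had 76.9 and 129 in whole testis and 122 and 82.7 in tubules, so its direction differed between preparations. Its 4 probe sets disagreed, with log2 ratios of 0.74, 0.43, -0.74 and -0.91 in whole testis. Tal1, a blood and endothelial factor, was above the bound in XX/Sry tubules alone (67.9), at least 1.11-fold higher there than in W/Wv, so its place among the genes that met the rule rests on signals below background. Erg, an ETS factor of endothelium, lay at 15.1 to 17.9, below the bound everywhere.

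Of the vasoactive and secreted genes besides Edn1, Nos3, the endothelial nitric oxide synthase, had 137 and 113 in whole testis and 116 and 158.5 in tubules, 1.21-fold lower and 1.36-fold higher in XX/Sry. Egfl7, a secreted matrix protein of endothelium, had 175 and 357.5 in whole testis and 193 and 254 in tubules, 2.04-fold and 1.32-fold higher. Another Egfl7 probe set went the opposite way, from 166 to 75.4 in whole testis and from 247 to 49.5 in tubules, while the remaining 2 were higher in whole testis by log2 ratios of 1.15 and 0.66. The ratio of Egfl7 thus depended on the probe set.

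The remaining 5 genes act in clotting and leukocyte capture. Thbd, thrombomodulin, had 248.6 and 421.5 in whole testis and 178 and 219 in tubules, 1.70-fold and 1.23-fold higher in XX/Sry. Procr, the endothelial protein C receptor, had 83.7 and 119.6 in whole testis, 1.43-fold higher, and 29.0 and 242 in tubules, at least 3.97-fold higher. The protein C pathway genes Thbd and Procr were therefore both higher in XX/Sry in both preparations, though neither passed the adjusted test (limma adjusted p of 0.768 and 0.501). Vwf, which binds platelets to the vessel wall, had 36.4 and 119.6 in whole testis, at least 1.57-fold higher, and 282 and 266.5 in tubules, 1.06-fold lower. The selectins were dim. Sele had 69.4 and 5.0 in whole testis and 59.5 and 21.2 in tubules, with 1 of the 4 signals above its bound and no fold given, and Selp, which platelets also hold, had 154 and 88.9 in whole testis, 1.73-fold lower in XX/Sry, and lay below the bound in tubules (33.0 and 43.5).

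**Figure D3:**
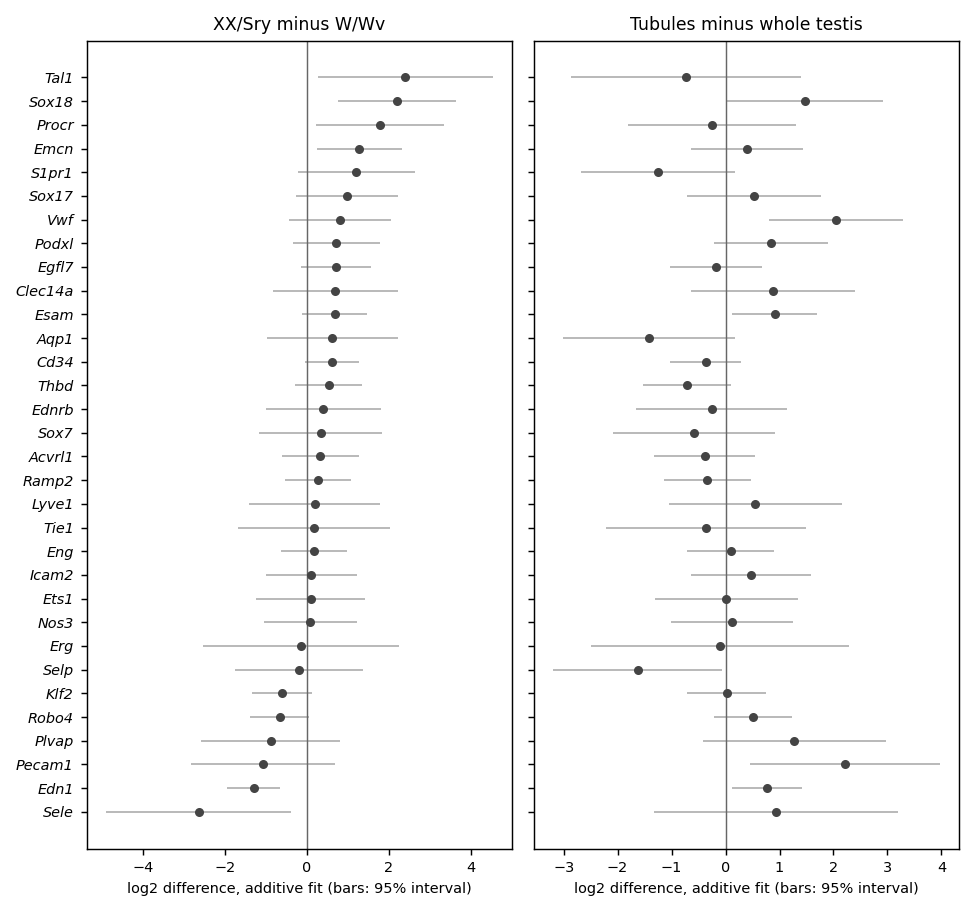
Log2 differences with 95% intervals from the additive limma fit for the 32 endothelial genes, sorted by the genotype difference: XX/Sry minus W/Wv on the left, tubules minus whole testis on the right. The genotype interval lies above 0 for Tal1, Sox18, Procr and Emcn and below 0 for Edn1 and Sele, before any adjustment for the number of probe sets, and 0 of the 32 passed after it.

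Taken one preparation at a time, 8 of the 32 were at least 2-fold higher in XX/Sry whole testis (25%, against 8.1% of all genes) and 5 lower (15.6% against 13.4%). Against the background bound 5 were higher (Emcn, Egfl7, Sox17, Sox18 and Podxl), or 15.6% against 2.95% of all genes. Of these 5, Egfl7, Sox17 and Podxl have another probe set with a whole testis ratio below 0 (-1.14, -0.37 and -2.88), and with probe sets averaged the mean genotype ratio of the pairs was 0.0087 for Egfl7 and -0.59 for Podxl, against 0.71 and 0.72. In tubules 5 were at least 2-fold higher (Emcn, S1pr1, Aqp1, Tal1 and Procr; 15.6% against 11.2%) and 2 lower (Edn1 and Sele; 6.25% against 10.4%). The share of the 32 members 2-fold higher in whole testis was thus above that of all genes, and the shares in tubules were near it. Among the 9 brighter members, 1 was at least 2-fold higher in XX/Sry whole testis (Egfl7, 11.1%) and 2 were lower (Robo4 and Edn1, 22.2%). Whatever their size, 6 of the 9 ratios were above 0 there and 3 below. In tubules 0 of the 9 were higher and 1 was lower (Edn1). Shares over genes of that brightness are not given for a single preparation. The difference between the preparations was not tested.

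The other comparison set tubules against whole testis within each genotype and asked which vessel RNA stays with isolated tubules. The endothelial list was about as bright in tubules as in whole testis, with median log2 ratios of 0.02 for W/Wv and -0.02 for XX/Sry, against -0.15 and -0.02 over all genes. In each genotype 16 of the 32 ratios were above 0. Interstitial lists differed from this: 6 Leydig cell genes had medians of -2.09 and -1.44, 12 macrophage genes of -1.59 and -2.26, and 7 fibroblast and tunica genes of -1.62 and -2.57. Mural and peritubular genes had medians of 0.91 and 0.23, and Sertoli cell genes of 0.73 and 0.25. The differences between lists are descriptions and were not tested. Over the 9 brighter endothelial members the medians were 0.14 (W/Wv) and -0.17 (XX/Sry), against 0.01 and 0.07 over all genes of that brightness. After centring the arrays on their medians the endothelial medians were 0.24 and 0.09 against 0.07 and 0.09 over all genes, and with the spike controls made equal -0.52 and -0.03 against -0.70 and -0.03. These scalings moved all genes of an array alike, so they could not change the 0.17 by which the list lay above all genes in W/Wv. That difference was 0.41 after quantile normalisation, 0.12 with a constant of 50 added and 0.10 with probe sets averaged. In XX/Sry it was -0.0004 as deposited, and 0.07, 0.003 and 0.21 under those 3 settings.

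**Figure D4:**
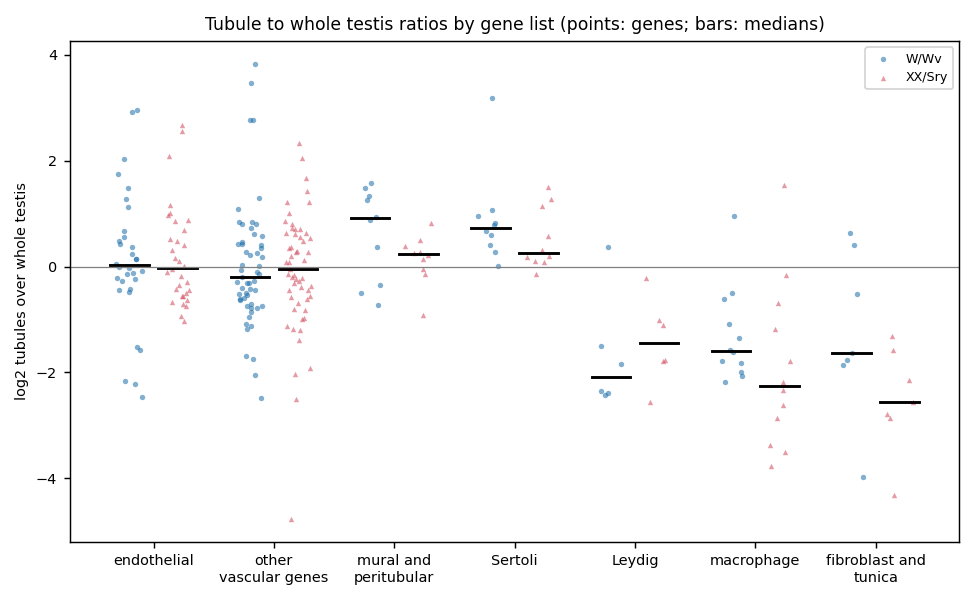
Log2 ratio of tubules over whole testis for the genes of 7 lists, with W/Wv as blue circles and XX/Sry as red triangles; each point is 1 gene and each bar a list median. The endothelial bars lie at 0.02 and -0.02, while the Leydig, macrophage and fibroblast bars lie between -2.57 and -1.44.

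By the 2-fold rule in both genotypes, 2 of the 32 were higher in tubules (Pecam1 and Vwf), where 1.32% of all genes were, and 1 was lower (Selp), where 5.74% were. Of the 9 brighter members 0 were higher and 0 lower, beside 0.775% and 2.78% of genes of that brightness. Vwf had 36.4 in W/Wv whole testis against 282 in W/Wv tubules, at least 3.70-fold higher, and 119.6 against 266.5 in XX/Sry, 2.23-fold higher. Vwf alone met the rule against the background bound, where the share of all genes is not given. Its fitted log2 difference was 2.06 ± 0.56 (SE) with a limma adjusted p of 0.124, the lowest of the list, and 0.0873 to 0.571 over the other settings. Pecam1 was higher in tubules by at least 1.67-fold in W/Wv and 1.30-fold in XX/Sry. Selp was lower in tubules, at least 2.02-fold in W/Wv and at least 1.39-fold in XX/Sry. The Selp call was lost on centring the arrays (-2.00 and -0.92), and with the mean of its 2 probe sets the XX/Sry ratio was 0.03.

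In the additive fit 0 of the 32 members passed an adjusted p of 0.05 for preparation, where 1.22% of all probe sets did. At an unadjusted p under 0.05 there were 6 (Pecam1, Vwf, Esam, Sox18 and Edn1 higher in tubules, Selp lower), or 18.8%, against 13.9% of all probe sets. Esam was 2.19-fold higher in W/Wv tubules and 1.61-fold in XX/Sry, and Edn1 1.48-fold and 1.97-fold. The anticoagulant receptor gene Thbd was 1.40-fold and 1.92-fold lower, and Cd34 1.02-fold and 1.64-fold lower. Members of the list thus lay on both sides of 0.

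**Figure D5:**
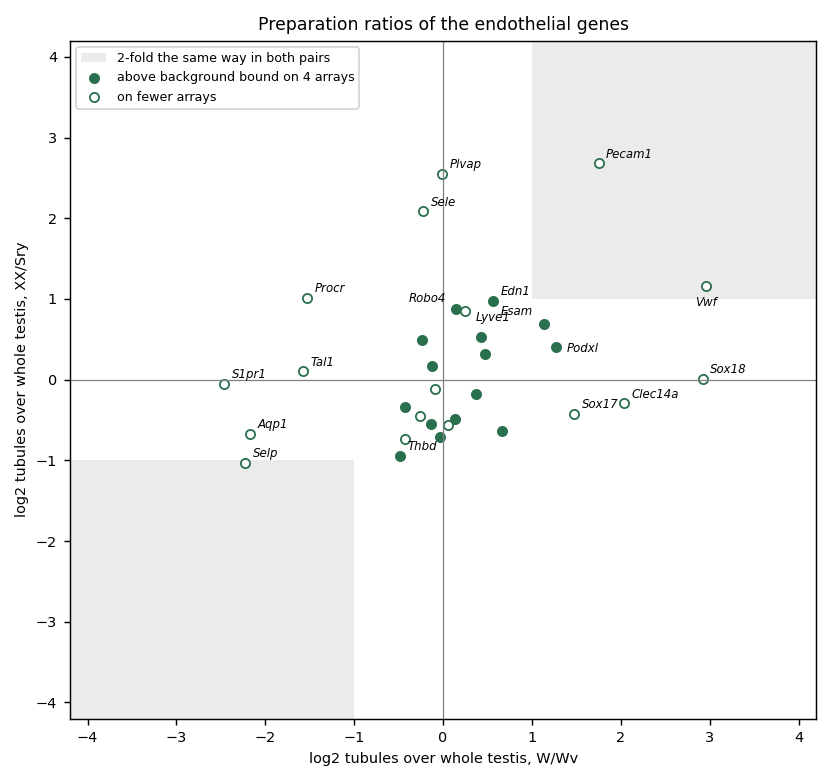
Log2 ratio of tubules over whole testis in W/Wv (horizontal) and in XX/Sry (vertical) for the 32 endothelial genes; filled points were above the background bound on all 4 arrays, and shaded corners mark 2-fold the same way in both. Vwf and Pecam1 lie in the upper right corner and Selp at the edge of the lower left one, and Procr lies opposite, at -1.53 and 1.02.

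Within 1 genotype, 7 of the 32 were at least 2-fold higher in W/Wv tubules (21.9%, against 7.7% of all genes) and 5 were lower (15.6% against 18.3%). Against the background bound 5 were higher (Vwf, Esam, Sox17, Sox18 and Podxl), or 15.6% against 3.24% of all genes. Of these 5, Sox17 and Podxl have another probe set with W/Wv log2 ratios of 0.16 and -0.012. In XX/Sry 5 of the 32 were higher (15.6% against 9.23%) and 1 lower (3.12% against 14.1%). Of the 9 brighter members 1 was higher (Esam, 11.1%) and 0 lower in W/Wv, and 0 were higher and 0 lower in XX/Sry. Shares over genes of that brightness are not given within 1 genotype, so these counts have no background to be read against. The genotype comparison in whole testis and the tubule comparison in W/Wv share the W/Wv whole testis array. By the probe sets that stood for them, Vwf, Sox17, Sox18, Clec14a and Podxl were at their lowest there. Their signals were 36.4, 59.0, 23.5, 35.7 and 76.7 against a bound of 76.3, which Podxl alone passed. Other probe sets of Sox17 (115) and Podxl (109) lay above that bound and were lowest in XX/Sry whole testis (88.9 and 14.8). That of Clec14a had 12.6 on both whole testis arrays. The Gapdh 3' to 5' signal ratio of the W/Wv whole testis array was 0.974, against 0.733 to 0.930 on the others. Its spike controls lay at -0.09, and those that stood apart, at 0.46, were on the W/Wv tubules array. The part of either measure in these low signals was not tested. In the same way S1pr1, Aqp1, Tal1, Procr and Selp were at their lowest on the W/Wv tubules array, at 32.1, 25, 7.2, 29.0 and 33.0 against a bound of 46.1.

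Further vascular genes outside the list were described in the same way, 55 of 60 being measured. For genotype 3 were 2-fold higher in XX/Sry in both preparations, 1 was lower and 51 were neither, and for preparation 2 were higher in tubules, 4 lower and 49 neither. Over all genes 1.98% and 3.22% were higher and lower for genotype, and 1.32% and 5.74% for preparation. The median tubule to whole testis ratios of this list were -0.20 and -0.04. Of the defining receptors, Kdr, Tek and Flt4 were within 2-fold between genotypes in both preparations. Kdr, the main VEGF receptor, had whole testis signals of 198 (W/Wv) and 152 (XX/Sry) and 172 and 222 in tubules, and Tek, the angiopoietin receptor, had 90.0 and 82.6 and 134 and 128. Flt4, a VEGF-C receptor of lymphatic vessels, had 115 and 98.0 and 109.6 and 107. Flt1, a VEGF receptor, had 149 and 53.8 in whole testis, at least 1.95-fold lower in XX/Sry, and 135 and 144 in tubules. Cdh5, the endothelial cadherin, had 137 and 223.5 in whole testis and 176 and 114 in tubules, so its direction differed between preparations. None of these 5 met the 2-fold rule in either comparison.

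The further vascular genes that met the rule with bright enough signals were few. Vegfa, the main growth factor for vessels, had 56.8 and 189 in whole testis and 64.4 and 231.5 in tubules, at least 2.48-fold and 3.59-fold higher in XX/Sry. Efnb2, the ephrin that marks arteries, had 264 and 121 in whole testis and 472 and 200.4 in tubules, 2.18-fold and 2.36-fold lower. Cd36, a fatty acid and scavenger receptor of capillaries that macrophages and steroid-making cells also carry, had 1626 and 4735 in whole testis and 392 and 1165 in tubules. The XX/Sry signals were higher by 2.91-fold and 2.97-fold (limma adjusted p = 0.0403), and the tubule signals were lower than those of whole testis by 4.15-fold and 4.06-fold (adjusted p = 0.00328). Cd36 and Vcam1 were the genes of this list that passed the fit, 1 for genotype and 2 for preparation, against 11 and 11 of 55 at an unadjusted p under 0.05, where 8.74% and 13.9% of all probe sets were. These calls were lost in the fit without a trend, which called 0 of all probe sets in either comparison. Vcam1, an adhesion molecule of activated endothelium and of other cells, had 3706 and 6278 in whole testis against 1143 and 1111 in tubules, 3.24-fold and 5.65-fold lower there (adjusted p = 0.00417), and Nrp1, a VEGF co-receptor, was 2.12-fold and 2.25-fold lower. The summed signals of the Leydig genes were 37611 and 59091 in whole testis and 10613 and 22948 in tubules, and those of the macrophage genes 14596 and 18408 against 8050 and 8307; their part in the Cd36 and Vcam1 values was not tested.

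The remaining lists bear on which cells the arrays held. Of 6 blood and platelet genes 3 or 4 lay above the bound on each array, with summed signals of 2476 and 2155 in whole testis and 858 and 1119 in tubules, and Hba-a1 was below it on all 4. Of 5 lymphatic genes, Lyve1 among them, 3 to 5 lay above the bound, with medians of -0.11 and -0.52 for genotype. Immediate early genes were brighter in tubules, with medians of 1.63 and 0.98 over 8 genes.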

How the data were processed

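Whole testes and isolated seminiferous tubules of adult W/Wv and XX/Sry males were measured on 4 Affymetrix 430A arrays, 1 per group. The deposited values are array intensity: the authors calculated MAS5 signals with Microarray Suite, per the labels, on a linear scale with each array scaled to a like mean; no source used here gives the scaling target, and detection calls were not used. The number of arrays limits the precision, and p-values rest on the disagreement between the 2 pairs of arrays, moderated largely by that of other probe sets of like signal, and not on biological replicates.

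Of 22690 probe sets, 64 controls were set aside. The platform's annotation gave 1 gene symbol to 20380 of the remaining 22626, several to 691 and none to 1555. Genes were represented by the probe set with the highest mean log2 signal. Ratios are of signals as deposited, called at 2-fold in both pairs. The additive fit used limma 3.58.1 in R 4.3.3 on log2 signals (trend, two-sided, Benjamini-Hochberg adjustment over all probe sets, 9.98 prior degrees of freedom). It was also run on simulated additive shifts with the same noise for every probe set. That run cannot show how the fit behaves where noise grows at low signal or where genotype and preparation interact. Member roles, lists and settings were chosen with earlier results of these data known. All 32 measured members were described. From the further vascular genes, Cdh5, Kdr, Flt1, Flt4 and Tek were named whatever their values. Others were named where they met the rule and the higher signal in each pair of that comparison reached its array's median. Alternatives were other scalings, a constant of 50, the mean of all probe sets, brighter members, thresholds of 1.5-fold and 3-fold, the background bound, limma without a trend and brighter probe sets alone; 2 more, spike control scaling and leaving out the W/Wv tubules array, were chosen after seeing the data. Promoter sequences are from RefSeq (GRCm38.p6).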

Additional observations from a re-analysis of the deposited data

Results flagged for a closer look

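Procr differed between genotypes in its tubule to whole testis ratio. Its log2 ratio was -1.53 in W/Wv, where the tubule signal (29.0) lay below the background bound, and 1.02 in XX/Sry. Against the bound the W/Wv change was at least 1.10-fold lower, and the XX/Sry change was 2.02-fold higher. The difference was not tested, since each group had 1 array. No group had enough arrays to look for outlying samples.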

How the results depend on the processing

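Over the 32 members and both comparisons, 58 to 63 of the 64 calls or non-calls held under each scaling, constant, probe set or threshold setting. Most of the 64 were non-calls, so that count says little of the calls themselves. Most calls were lost in 2 of these settings, 5 with a constant of 50 added and 6 at 3-fold. Most were also lost against the background bound, where Emcn, Edn1 and Vwf alone were called. Among the brighter members Edn1 alone was called. With the mean of all probe sets, Selp turned to 0.03 in XX/Sry. The mean ratio of the pairs changed sign there for Podxl (0.72 to -0.59) and Ets1 (0.09 to -0.27) for genotype, and for Lyve1 (0.55 to -0.52) and Ets1 (0.013 to -0.0017) for preparation. For genotype, the 2 members higher in XX/Sry and the 2 lower were 2 and 2 after median centring, quantile normalisation or averaging of probe sets. They became 0 and 1 with a constant of 50 added, 4 and 0 with spike control scaling, 0 and 1 among brighter members, 0 and 0 at 3-fold, 1 and 1 against the background bound, and 8 and 5 in whole testis alone, without the W/Wv tubules array. For preparation, the 2 higher members became 1 with the constant, at 3-fold and against the bound, 0 among brighter members and 5 in XX/Sry alone. The 1 lower member became 0 under median centring, quantile normalisation, the constant, the mean of all probe sets, brighter members, 3-fold and the bound, and 2 at 1.5-fold. Members past the genotype fit were 0, but 1 with spike control scaling (Sox18) and 1 among brighter probe sets (Edn1). Calls over all probe sets rose too, from 34 of 22626 to 208 with spike control scaling. Among brighter probe sets, which held 10 members, they were 174 of 11313. Without a trend limma called 0 of all probe sets in either comparison. The median genotype ratio in whole testis was 0.67 after quantile normalisation and 0.28 when probe sets were averaged, and in tubules 0.85 with spike control scaling. The tubule to whole testis median in W/Wv was 0.24 after median centring, 0.40 after quantile normalisation, -0.52 with spike control scaling, -0.061 when probe sets were averaged and 0.14 among brighter members. In XX/Sry it was 0.092, 0.10, -0.03, 0.17 and -0.17 under the same settings. Fewer probe sets enter the fit among brighter ones; other causes were not tested. No replicate could be left out, as each group had 1 array. No paired analysis was possible because the labels give no replicate numbers. Signal over background limits 17 of the 32 members, which lay at or below the bound on at least 1 array.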
